A study of Mus musculus with 33 samples.

Results

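Cyrano (listed as 1700020I14Rik, RefSeq symbol Oip5os1) is a long noncoding RNA of mouse chromosome 2, and its coding neighbour Nusap1 begins 10795 bp past its end. These 2 genes and 8 further coding genes of the same stretch, Ino80, Exd1, Chp1, Ndufaf1, Rtf1, Itpka, Ltk and Rpap1, were followed by name through 5 deposited tables, which makes 10 of the 38393 features that each table lists. All 10 were found in every table. They were selected on the Cyrano and Nusap1 counts of the Cyrano knockout comparison and on position beside these genes. Values of the 10 in that comparison are therefore a description, given with no p-value. Genes outside the 10 were tested there.

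The 33 libraries hold polyadenylated RNA of cerebellum or cortex from C57Bl/6J males, aged 1 month. CyrMut mice carried a mutated miR-7 site in Cyrano, CyrKO mice were Cyrano-/-, and Mir7DKO mice were Mir7a1-/- and Mir7b-/-, each set against wild-type (WT) mice of the same experiment. Experiment 1A held 4 CyrMut and 3 WT cerebella. Experiment 1B held 4 CyrKO, 4 Mir7DKO and 4 WT cerebella, and its WT libraries served both mutants. Experiment 2 held 3 Mir7DKO and 4 WT libraries of cerebellum, and again 3 Mir7DKO and 4 WT libraries of cortex. How the alleles were made, which part of Cyrano the CyrKO allele removes and which bases the CyrMut allele changes are not stated in the sources used. The submitters call the replicates biological, and the labels do not say which libraries came from littermates or from the same animal.

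MicroRNAs guide Argonaute proteins to messenger RNAs mainly through a short seed near their 5′ end, and such pairing usually lowers the target. Pairing that also extends along the 3′ part of the microRNA can do the reverse and lead to destruction of the microRNA, and Cyrano is known in mouse brain for acting in this way on miR-7. Cdr1as, the other noncoding RNA of this network, is circular and binds miR-7 at many places. The Nusap1 protein binds spindle microtubules in dividing cells, and most neurons of the brain no longer divide.

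The sequences that link these genes to miR-7 are shown here because CyrMut and CyrKO mice alter the Cyrano side of that pairing and Mir7DKO mice the miR-7 side. The mature microRNAs are from RefSeq (GRCm38.p6), with the seed in capitals. miR-7a-5p comes from Mir7-1 on chromosome 13 (minus strand, chr13:58392841-58392863) and also from Mir7-2 on chromosome 7, and miR-7b-5p from Mir7b on chromosome 17 (plus strand, chr17:56243017-56243040). Both share 1 seed.
miR-7a-5p: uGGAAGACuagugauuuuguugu
miR-7b-5p: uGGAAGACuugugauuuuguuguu
The Cyrano site lies in an exon of the longer of its 2 annotated transcripts, past the end of the shorter one (GRCm38, chr2:119602136-119602161, plus strand). Capitals mark the bases that can pair with miR-7b-5p.
Cyrano miR-7 site: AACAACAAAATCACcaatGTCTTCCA
Of its 26 bases, 22 are complementary to miR-7b-5p, and only 4 in the middle are not. The same stretch is complementary to 21 of the 23 bases of miR-7a-5p. The last 8 bases of the site, which hold the seed match, occur at 2 places in the longer Cyrano transcript, this site included. Matches to the seed were counted in the longest annotated 3′ UTR of each of the 9 coding members. A match was pairing to bases 2 to 8, or to bases 2 to 7 followed by an A. The 3′ UTR of Nusap1 held 1, that of Rpap1 held 1, and those of the other 7 held none. The share of all 3′ UTRs with such a match was not counted. The Nusap1 match (GRCm38, chr2:119649850-119649875, plus strand) is given with the match in capitals.
Nusap1 seed match: catccacttGTCTTCCAcaactgttg
A match is a description of letters, and whether miR-7 acts on it was not measured.

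In GRCm38 Cyrano lies on the plus strand (chr2:119594297-119607502). Chp1, on the same strand, ends 7269 bp before it. Oip5, on the minus strand, ends 2009 bp beyond it (chr2:119609512-119618469), so Oip5 lies between Cyrano and Nusap1 and is the nearest gene on that side. Nusap1 (plus strand, chr2:119618298-119651244) meets Oip5 head to head, and the annotated spans overlap by 172 bp. Of the 4 annotated Nusap1 transcripts, 3 start inside the 300-base RefSeq window around the Oip5 start (GRCm38.p6, chr2:119618456-119618755, minus strand). By the GENCODE annotation of both genes, 1 of them starts 248 bp from the Oip5 start. This window is printed because both genes are read out from it in opposite directions, and their counts in CyrKO are set side by side further on. Capitals mark CCAAT and TTTGAA on either strand, motifs known from promoters of genes of dividing cells.
Oip5 and Nusap1 start region: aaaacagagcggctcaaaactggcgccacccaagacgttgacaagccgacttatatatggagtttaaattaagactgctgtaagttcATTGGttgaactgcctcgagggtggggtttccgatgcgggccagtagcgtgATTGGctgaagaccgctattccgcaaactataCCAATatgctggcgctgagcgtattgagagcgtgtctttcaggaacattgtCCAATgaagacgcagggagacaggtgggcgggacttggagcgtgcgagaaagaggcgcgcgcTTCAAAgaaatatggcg
It held 4 CCAAT and 1 TTTGAA, which do not overlap. Of 32817 RefSeq windows of this length, 37.4% held CCAAT, 17.9% held TTTGAA and 6.9% held both. The RefSeq window of Nusap1 itself, at its outermost start, held neither.

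Libraries held 6.89 to 24.94 M counts. Levels are CPM, a gene's count as a share of its library's total and given for a total of 1 M, with TMM scaling within an experiment, and changes are log2 of mutant over WT with their standard error (SE) from edgeR. The tissue labels matched the sums of their markers. Granule cell genes, 6 in all, summed to 3806 to 4586 CPM in cerebellar libraries and to 68.1 to 81.7 CPM in cortical ones. In experiment 2, markers of cortical projection neurons summed to 168 to 185 CPM in WT cerebellum and 583 to 724 CPM in WT cortex. Among them, Fezf2 and Emx1 had no count in that cerebellum, whereas Neurod2 was higher there than in cortex (109 against 66.1 CPM).

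Cyrano was nearly gone in CyrKO cerebellum. The CyrKO libraries held 77.4, 74.8, 80.6 and 88.9 CPM of Cyrano, against 1961, 1974, 1882 and 1570.5 CPM in the WT libraries of experiment 1B. The groups lay far apart, and no library went against its label. The CyrKO mean of 80.4 ± 6.12 CPM was 4.35% of the WT mean of 1847 ± 189 CPM (SD, n = 4 each), a log2 change of -4.53 (SE 0.089). Between 621 and 1013 reads a CyrKO library were still assigned to the gene. Where in the gene these reads lie cannot be seen in gene counts.

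Nusap1, the spindle gene, was far above WT in the same libraries. The 4 CyrKO libraries held 19.1, 17.1, 21.1 and 20.1 CPM of Nusap1, from 153, 167, 212 and 229 reads. WT libraries held 1.45, 0.962, 1.57 and 1.07 CPM, from 19, 9, 15 and 15 reads. The groups did not overlap, and the lowest CyrKO library was 10.9 times the highest WT library. Means were 19.4 ± 1.71 CPM in CyrKO and 1.26 ± 0.29 CPM in WT (SD, n = 4 each), a log2 change of 3.92 (SE 0.15). Summed over its group and without TMM scaling, Nusap1 came to 19.3 CPM in CyrKO (exact Poisson 95% interval 17.9 to 20.7, for counting error only), against 1.26 in WT (0.957 to 1.63). In bulk tissue, more RNA per cell and more cells that make the RNA cannot be told apart.

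**Figure D1:**
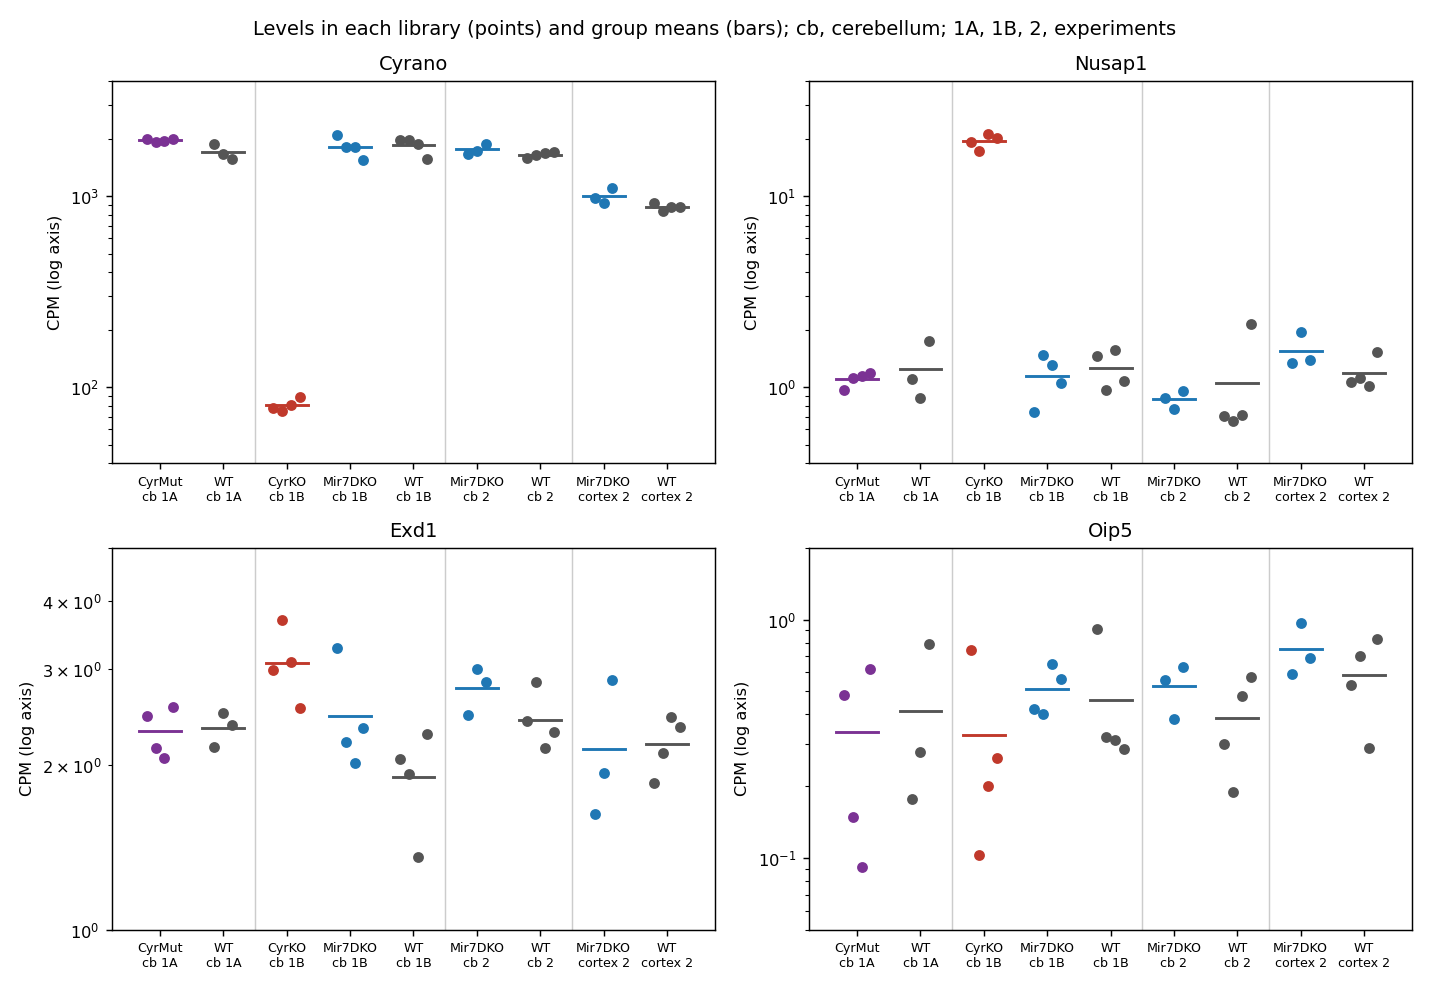
CPM (log axis) of Cyrano, Nusap1, Exd1 and Oip5 in every library, in 9 groups, each mutant left of the WT of its experiment. Points are libraries and bars are group means. CyrKO stands apart for Cyrano (74.8 to 88.9 CPM) and Nusap1 (17.1 to 21.1 CPM), and no other group does so for Nusap1.

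Per kb of exon, the pair drew close to each other in CyrKO. Each CyrKO library held 1.86 to 2.16 times as much Cyrano as Nusap1 per kb of exon, against 587 to 1002 times in the WT libraries of experiment 1B. By level per kb of exon, Cyrano ranked 4746 of 17405 genes in CyrKO and 60 of 17667 in WT. Nusap1 ranked 7576 of 17405 in CyrKO and 14228 of 17667 in WT. The length used for Cyrano is that of all its annotated exons. Which part the CyrKO allele removes is not stated, so the CyrKO ratio and rank of Cyrano per kb are uncertain. Without length, there were 3.81 to 4.42 reads of Cyrano per read of Nusap1 in CyrKO libraries, against 1200 to 2051 in WT.

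Oip5, whose protein works at centromeres, was near the limit of detection on both sides. It had 6, 1, 2 and 3 reads in CyrKO libraries, against 12, 3, 3 and 4 reads in WT libraries of experiment 1B. The groups overlapped, and Oip5 did not pass the filter on low counts. Summed in the same way it came to 0.304 CPM in CyrKO (interval 0.157 to 0.531) and 0.478 in WT (0.3 to 0.724). The gene that lies between Cyrano and Nusap1, and shares a start region with Nusap1, was thus not seen to be higher at this depth. Whether the authors' counting used strand is not given, so reads from the 172 bp that Oip5 and Nusap1 share are uncertain for both.

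The other annotated genes that start within 100 kb, the pseudogenes Gm14208, H3f3c and Gm14383 and the ribosomal RNA gene n-R5s204, had at most 1 read in any library.

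Exd1, whose protein takes part in piRNA production in mouse germ cells, came next in size. The CyrKO libraries held 2.99, 3.69, 3.09 and 2.54 CPM of Exd1, against 2.05, 1.92, 1.36 and 2.28 CPM in WT, from 24 to 36 and from 13 to 32 reads. The lowest CyrKO library lay just above the highest WT library. Means were 3.08 ± 0.47 CPM in CyrKO and 1.9 ± 0.39 CPM in WT (SD, n = 4 each), a log2 change of 0.65 (SE 0.21). The WT libraries of experiment 1B had the lowest mean Exd1 level of all 9 groups, and the Mir7DKO libraries beside them, at 2.02 to 3.28 CPM, overlapped both. Chp1, a calcium-binding partner of sodium-proton exchangers that starts 69 bp from Exd1 in the opposite direction, had 83.6 to 96.1 CPM in CyrKO and 84.9 to 87.0 CPM in WT. Its groups overlapped, with a log2 change of 0.07 (SE 0.058).

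The remaining neighbours lay close to WT. Rtf1, a transcription elongation factor linked to the PAF1 complex, averaged 90.3 CPM in CyrKO against 91.7 CPM in WT. Ndufaf1, an assembly factor of mitochondrial complex I, was at 15.0 to 17.2 CPM in CyrKO and 14.1 to 19.0 CPM in WT. Itpka, the inositol trisphosphate kinase of dendritic spines, was at 24.3 to 33.0 CPM in CyrKO and 30.5 to 35.9 CPM in WT, and its log2 change of -0.18 (SE 0.10) was the lowest of the 8 genes other than Cyrano and Nusap1. These 8 had a median log2 change of -0.01. Beyond the members, 13 genes within 500 kb of Cyrano passed the filter, with log2 changes from -0.28 (Dll4) to 0.17 (Mga). None of the 13 passed in either direction by edgeR's quasi-likelihood test or by DESeq2, and 1 had an unadjusted p under 0.05, where 7.35% of all genes did. Markers of choroid plexus summed to 30.2 to 161 CPM in CyrKO and 30.2 to 395 CPM in WT. Markers of erythrocytes summed to 714 to 1368 CPM in CyrKO and 236 to 1756 CPM in WT, with a median of 913 CPM in CyrKO and 370.3 CPM in WT. The part of either in these values was not tested.

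Of the 10 members, 1 was called higher in CyrKO, where 0.00732% of all 13664 genes were, and 1 lower, where 0.0146% were, or 0.022% in either direction. Groups did not overlap for 2 members that were higher, where 1.96% of genes did so, and for 1 that was lower, where 2.09% did, or 4.05% in either direction. Cyrano and Nusap1, the called members, were chosen on these counts, and Exd1, the other member without overlap, by position with its values known, so nothing is read from either count. Nusap1 was the only gene called higher and Cyrano 1 of the 2 called lower, so the shares called over all genes include these members.

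**Figure D2:**
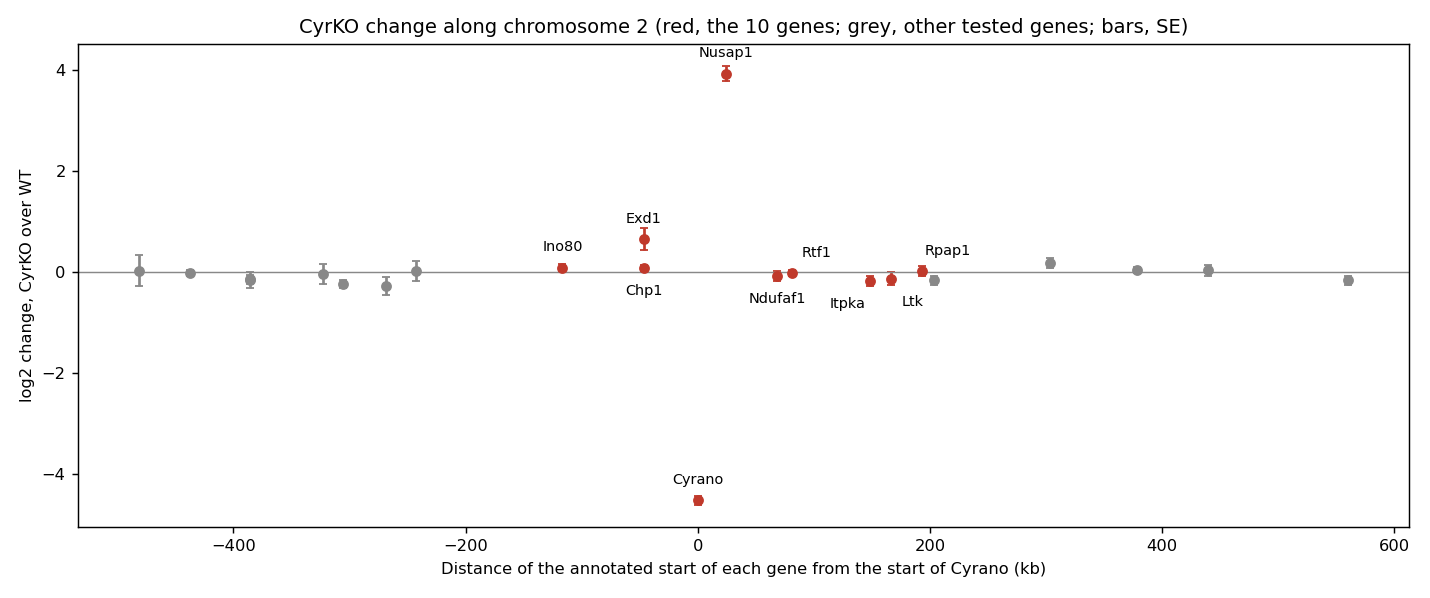
log2 change of CyrKO over WT (y axis, with SE) against the distance of each gene's annotated start from the start of Cyrano in kb (x axis), for the members (red) and other tested genes within 500 kb of Cyrano (grey). Nusap1, at 3.92, is 24 kb from the start of Cyrano, and the 8 coding members other than Nusap1 lie between -0.18 and 0.65.

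A list of 31 other spindle and cytokinesis genes was set beside Nusap1. None of the 19 that passed the filter passed the test in CyrKO in either direction, by edgeR or DESeq2, and 0 had an unadjusted p under 0.05, beside 7.35% of all genes. Their median log2 change was -0.06, beside -0.00157 over all genes tested. Top2a, which untangles chromosomes, had 1.57 ± 0.20 CPM in CyrKO and 1.68 ± 0.66 CPM in WT, and Mki67, the usual marker of proliferation, 3.14 ± 1.07 CPM in CyrKO and 2.91 ± 1.00 CPM in WT (SD, n = 4 each). Tpx2, a spindle assembly factor that works with the kinase Aurka, was at 1.99 ± 0.19 CPM in CyrKO and 1.98 ± 0.64 CPM in WT. Kpnb1, a nuclear import factor that also acts in spindle assembly, was at 232 ± 7.20 CPM in CyrKO and 220 ± 5.45 CPM in WT. Summed over 5 markers of dividing cells, CyrKO libraries held 3.38 to 6.32 CPM and WT libraries 3.71 to 6.77 CPM, so the groups overlapped.

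**Figure D3:**
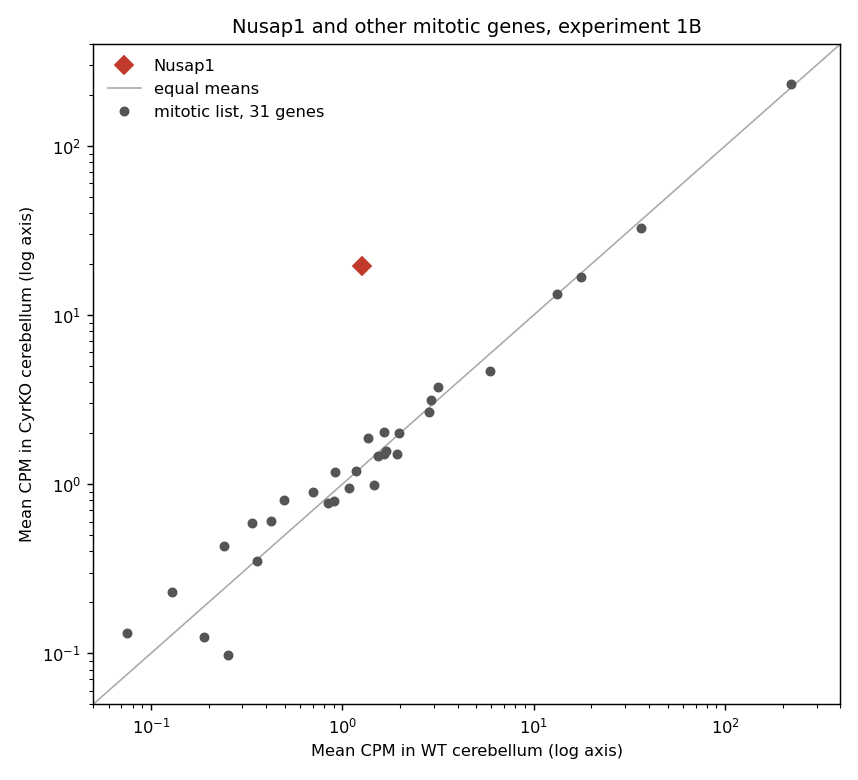
Mean CPM in CyrKO (y axis) against mean CPM in WT (x axis) of experiment 1B, both on log axes, for 31 spindle and cytokinesis genes (grey) and Nusap1 (red); the line marks equal means. Nusap1, at 19.4 CPM in CyrKO and 1.26 CPM in WT, lies far above the line along which the other genes fall.

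The CyrMut comparison asks whether a mutated miR-7 site in Cyrano does by itself what the loss of Cyrano did. Nusap1 was at 0.962, 1.11, 1.14 and 1.18 CPM in CyrMut, against 1.1, 0.872 and 1.74 CPM in WT of experiment 1A. The groups overlapped, and the log2 change was -0.09 (SE 0.27, adjusted p = 0.985, edgeR), with 95% bounds from -0.62 to 0.44. CyrMut and CyrKO were never in 1 experiment, so their changes were not tested against each other.

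For Cyrano itself, the 4 CyrMut libraries held 1999, 1924, 1937 and 1987 CPM, against 1873, 1661 and 1557 CPM in WT. Every CyrMut library lay above every WT library. The log2 change of 0.21 (SE 0.061) did not pass after adjustment over all genes (adjusted p = 0.944, edgeR). Ino80, the ATPase of a chromatin remodelling complex, was the other member whose groups did not overlap, at 63.3 to 65.7 CPM in CyrMut and 61.2 to 62.7 CPM in WT (log2 change 0.06, SE 0.052, adjusted p = 0.945). This makes 2 of 10 members higher with no overlap, where 2.66% of all genes were, or 5.39% in either direction. None of the 10 was called by edgeR or DESeq2, where edgeR called 0.00673% of genes, and 1 had an unadjusted p under 0.05, where 4.98% of all genes did. The 9 markers of choroid plexus, a tissue beside the cerebellum, were all detected and summed to 45.1 to 1183 CPM in CyrMut and 37.9 to 366 CPM in WT. Their median log2 change was 2.16, and 8 of 9 had an unadjusted p under 0.05. The 5 erythrocyte markers summed to 294 to 455 CPM in CyrMut and 369.9 to 1686 CPM in WT, with a median log2 change of -1.17 and 5 of 5 at an unadjusted p under 0.05. No marker of either list was called by edgeR or DESeq2, and their part in the values of the members was not tested. The other members had log2 changes from -0.14 (Chp1) to 0.02.

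Cdr1as, which has a feature of its own in the tables, was at 94.7 to 122 CPM in CyrMut, against 1044 to 1226 CPM in WT of experiment 1A, and at 89.6 to 143 CPM in CyrKO, against 651 to 1146 CPM in WT of experiment 1B. In both mutants all libraries were far below their WT. Cdr1as is circular and the libraries hold polyadenylated RNA, so what share of it these counts capture is not known. Nusap1 in these same libraries was high in CyrKO and within the WT range in CyrMut.

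The Mir7DKO comparisons ask whether the members answer to the loss of Mir7a1 and Mir7b. Mir7-2, which also yields miR-7a-5p, is not among the deleted genes that the labels name. Gene counts of these libraries do not check the Mir7 deletions. In cerebellum of experiment 1B, Cyrano was at 2079, 1799, 1802 and 1551 CPM in Mir7DKO, against 1961, 1974, 1882 and 1570.5 CPM in WT. The ranges overlapped (log2 change -0.03, SE 0.09, adjusted p = 1, edgeR). Nusap1 was at 0.74, 1.47, 1.3 and 1.05 CPM in Mir7DKO, 1 library below and 3 within the WT range of 0.962 to 1.57 CPM, with a log2 change of -0.10 (SE 0.28, adjusted p = 1) and 95% bounds from -0.64 to 0.44. None of the 10 members was called by edgeR or DESeq2, where edgeR called 0.00713% of 14031 genes, 0 had an unadjusted p under 0.05, where 3.68% of genes did, and none had groups without overlap, where 2.54% of genes did. The WT libraries here are those of the CyrKO comparison, so the Mir7DKO and CyrKO values share their baseline.

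**Figure D4:**
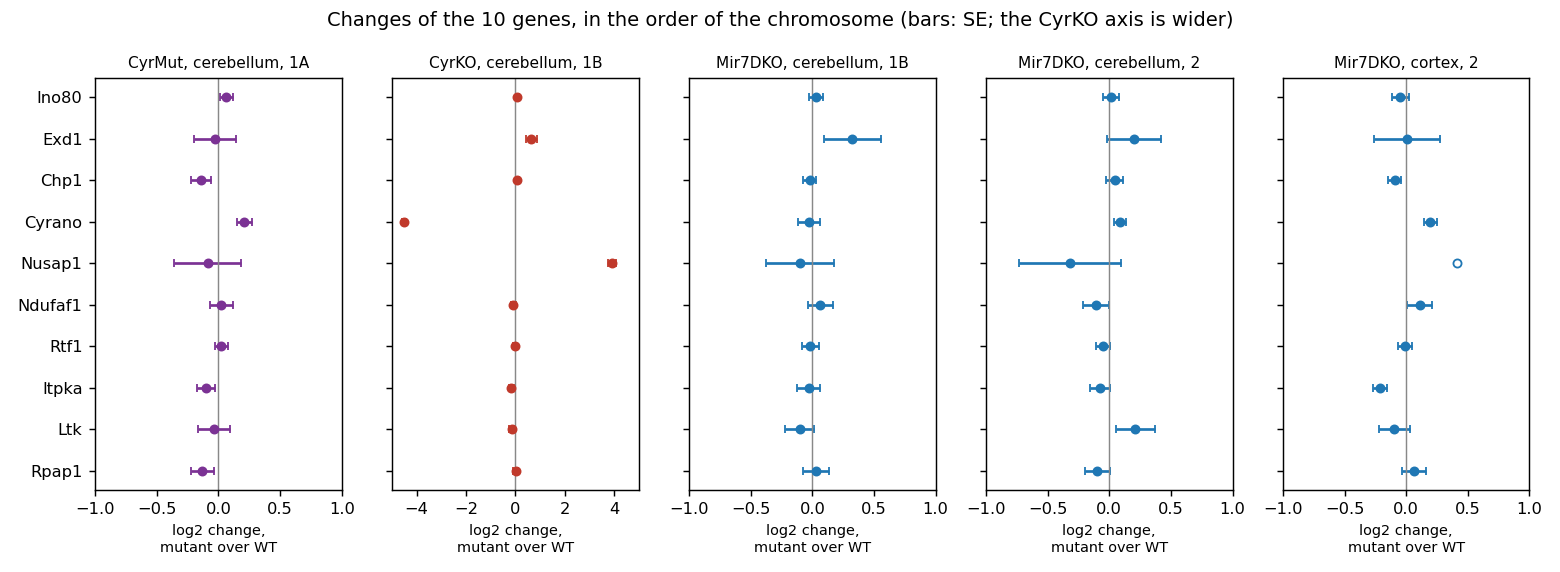
log2 change of mutant over WT (x axis, with SE) for the 10 members, from top to bottom in their order along the chromosome, in 5 comparisons; the open point is Nusap1 in cortex, where it did not pass the filter on low counts. Outside CyrKO, whose axis is wider, all points lie between -0.31 and 0.41.

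In cerebellum of experiment 2, Cyrano was at 1655, 1727 and 1879 CPM in Mir7DKO, against 1582, 1632, 1672 and 1701 CPM in WT. The lowest Mir7DKO library lay among the WT libraries (log2 change 0.09, SE 0.048, adjusted p = 0.782, edgeR). Nusap1 was at 0.879, 0.768 and 0.949 CPM in Mir7DKO, against 0.701, 0.663, 0.718 and 2.13 CPM in WT. Its log2 change of -0.31 (SE 0.41, adjusted p = 0.943) rests on the WT library at 2.13 CPM, since the other 3 WT libraries lie below all Mir7DKO libraries; without that library Nusap1 did not pass the filter. None of 10 members was called by edgeR or DESeq2, where edgeR called 0.198% of genes, 0 had an unadjusted p under 0.05, where 6.78% of genes did, and none had groups without overlap, where 6.7% of genes did. Choroid plexus markers summed to 31.9 to 698 CPM in Mir7DKO and 32.8 to 38.5 CPM in WT, with 4 of 7 tested higher, and their part in these values was not tested.

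In cortex, Cyrano was at 979, 921 and 1104 CPM in Mir7DKO, against 916, 837, 872 and 872 CPM in WT. All Mir7DKO libraries lay above all WT libraries, the lowest by a narrow margin. The log2 change of 0.20 (SE 0.055, adjusted p = 0.637, edgeR) did not pass, but it passed when genes with low counts were also tested (adjusted p = 0.00815 at the same log2 change of 0.20). Itpka was lower without overlap, at 90.8, 92.8 and 87.5 CPM in Mir7DKO and 101, 101, 110 and 108 CPM in WT, and its log2 change of -0.21 (SE 0.056, adjusted p = 0.606) did not pass. Chp1 was also lower without overlap, at 96.1 to 103 CPM in Mir7DKO and 104 to 111 CPM in WT (log2 change -0.09, adjusted p = 0.9). Of 9 members tested none was called by edgeR or DESeq2, where edgeR called 0.0436% of genes, and 2 had an unadjusted p under 0.05, where 5.77% of genes did. Groups did not overlap for 1 member that was higher, where 3.66% of genes did so, and for 2 that were lower, where 3.33% did, or 6.99% in either direction. Choroid plexus markers summed to 16.6 to 19.6 CPM in Mir7DKO cortex and 16.3 to 398 CPM in WT cortex, with 1 of 5 tested (Ttr) lower. The marker sums of 3 other cell types lay above WT cortex without overlap: astrocytes at 1309 to 1385 CPM in Mir7DKO and 1257 to 1304 CPM in WT, microglia at 256 to 263 CPM in Mir7DKO and 235 to 253 CPM in WT, and endothelium at 196 to 206 CPM in Mir7DKO and 169.5 to 184 CPM in WT. The margin was narrow for astrocytes and microglia. These 3 lists were named for this split, while the sums of the other marker lists overlapped between the groups. No gene of these 3 lists was called, and the part of all 4 lists in these values was not tested.

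Nusap1 had 9, 20 and 14 reads in Mir7DKO cortex, against 8, 8, 7 and 11 reads in WT cortex, too few to pass the filter. Its levels were 1.33, 1.94 and 1.38 CPM in Mir7DKO and 1.06, 1.12, 1.01 and 1.52 CPM in WT, and the groups overlapped. Tested without the filter, the log2 change was 0.41 (adjusted p = 0.827). The change in cerebellum and the change in cortex were also tested against each other, and none of the 10 members differed by edgeR, where 0.155% of genes differed, with 0 at an unadjusted p under 0.05, where 4.92% of genes were. For Cyrano the cerebellar change minus the cortical change was -0.11 (SE 0.077, adjusted p = 1).

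Wild-type cerebellum and cortex of experiment 2 differed for most of the 9 members that could be tested, as they did for most genes. Of the 9, 3 were higher in cerebellum, where 37.3% of 14001 genes were, and 4 lower, where 37.4% were, or 74.7% in either direction. The same 7 members had groups without overlap, where 68.3% of genes did. Cyrano was at 1647 ± 51.7 CPM in cerebellum and 874 ± 32.4 CPM in cortex (SD, n = 4 each), a log2 change of 0.91 (SE 0.04, adjusted p = 1.1e-15, edgeR). The lowest cerebellar library, at 1582 CPM, lay far above the highest cortical one, at 916 CPM.

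Itpka and Ltk were the members most tilted to cortex. Itpka was at 28.7, 30.0, 26.5 and 27.5 CPM in cerebellum and 101, 101, 110 and 108 CPM in cortex, with a log2 change of -1.91 (SE 0.059, adjusted p = 9.8e-19). Ltk, a receptor tyrosine kinase related to Alk, was at 5.21, 5.49, 4.62 and 5.91 CPM in cerebellum and 24.2, 21.02, 21.5 and 18.5 CPM in cortex, with a log2 change of -2.01 (SE 0.12, adjusted p = 3.0e-13). These 2 genes face each other tail to tail, with 56 bp between their ends, and reads that run past an end would be uncertain between them if strand was not used in counting. Chp1 (log2 change -0.58, adjusted p = 2.8e-09) and Rtf1 (-0.42, adjusted p = 6.8e-08) were also lower in cerebellum.

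Ino80 (log2 change 0.41, adjusted p = 2.4e-06) and Rpap1, a factor for assembly of RNA polymerase II (0.34, adjusted p = 0.0021), were higher in cerebellum. Exd1 (0.13, SE 0.23) and Ndufaf1 (0.01, SE 0.10) did not pass, with adjusted p of 0.606 and 0.922. Nusap1 had too few reads to pass the filter, at 0.663 to 2.13 CPM in cerebellum and 1.01 to 1.52 CPM in cortex, and tested without the filter its log2 change was -0.09 (adjusted p = 0.851). Cell makeup differs between these tissues, and a change per cell cannot be told apart from a change in the share of cells.

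**Figure D5:**
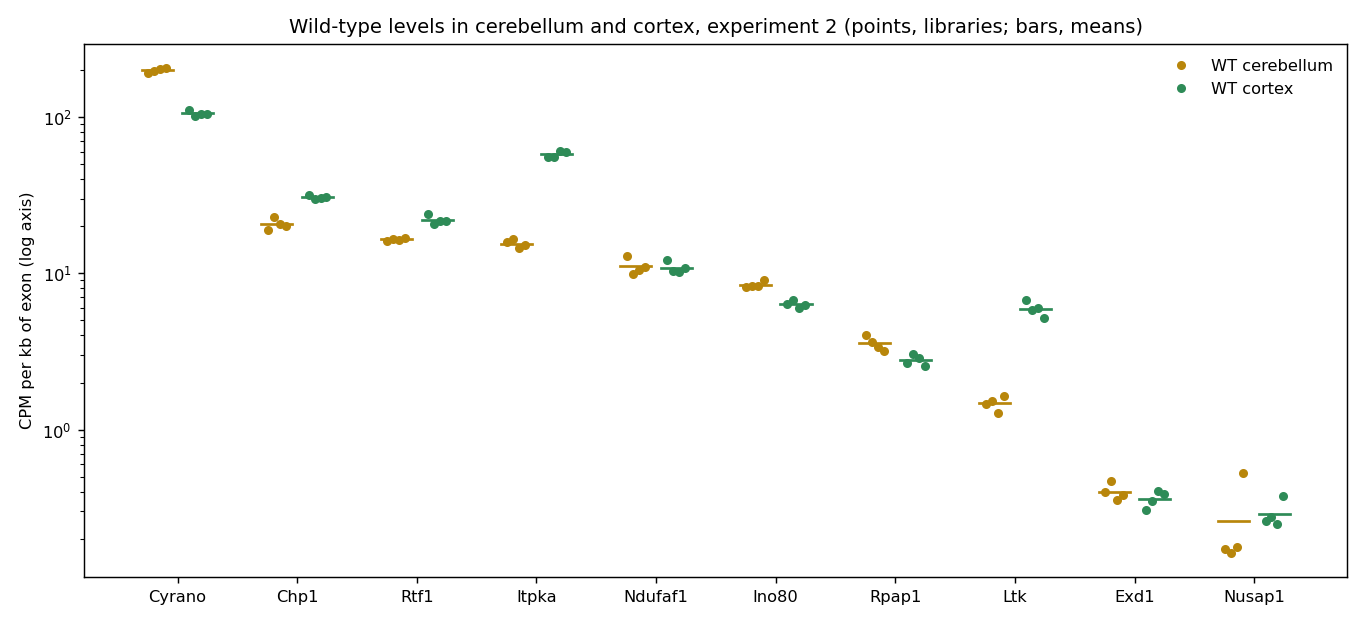
CPM per kb of exon (log axis) of the 10 members in WT cerebellum and WT cortex of experiment 2, ordered by their cerebellar level; points are libraries and bars are means. Cyrano is the highest member in both tissues, Nusap1 the lowest, and Itpka and Ltk are set apart between tissues.

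Per kb of exon, the members spanned a wide range within 1 tissue. In WT cerebellum of experiment 2, Cyrano was at 198 CPM per kb, Chp1 at 20.6, Rtf1 at 16.5, Itpka at 15.5 and Ndufaf1 at 11.1, and below them Ino80 was at 8.42, Rpap1 at 3.56, Ltk at 1.48, Exd1 at 0.401 and Nusap1 at 0.26. In WT cortex, Itpka at 57.7 CPM per kb came second to Cyrano at 105.

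Genes known to work with the members were counted as well, from lists written with earlier results of these data known. In the 5 mutant comparisons none of the tested genes of the PAF1 complex, the INO80 complex, complex I assembly, inositol trisphosphate kinases and receptors, Chp1 partners, Ltk relatives or RNA polymerase II assembly passed in either direction, by edgeR or DESeq2. Of 45 to 47 of these genes tested in each comparison, 0 in CyrMut, 1 each in CyrKO and Mir7DKO of experiment 1B, and 3 in cerebellum and 5 in cortex of experiment 2 had an unadjusted p under 0.05. Over all genes this share was 4.98% for CyrMut, 7.35% for CyrKO and 3.68% for the 1B Mir7DKO libraries, and in experiment 2 it was 6.78% for cerebellum and 5.77% for cortex. No gene of the Ltk list passed the filter in CyrKO or in Mir7DKO cerebellum of experiment 2. Between tissues, where 37.3% of all genes were higher in cerebellum and 37.4% lower, the lists are given by their counts alone. Of 5 tested PAF1 complex genes 4 were higher in cerebellum and 0 lower, with Leo1 at a log2 change of 1.51 (SE 0.069) and Ctr9 at 0.46 (SE 0.052), whereas Rtf1 itself was lower there. Of 5 inositol trisphosphate genes 4 were higher and 1 lower, led by the Purkinje cell receptor Itpr1 at 2.36 (SE 0.04), with Itpkb, a relative of Itpka, at 1.33 (SE 0.059), against -1.91 for Itpka. Of 5 tested Chp1 partners and relatives 1 was higher and 4 lower, with the calcineurin subunit Ppp3r1 at -1.68 (SE 0.039). Alk, the only tested gene of the Ltk list, was at -2.80 (SE 0.25).

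Beside the same 37.3% higher and 37.4% lower over all genes, of the 13 genes of the INO80 complex 3 were higher and 0 lower in cerebellum, among them Nfrkb at 0.33 (SE 0.079). Of 12 genes for complex I assembly 3 were higher and 4 lower. Of 5 tested genes for RNA polymerase II assembly 1 was higher and 1 lower. Of 19 tested spindle and cytokinesis genes 3 were higher and 10 lower in cerebellum, with a median log2 change of -0.55 beside 0.00777 over all genes. Among those lower were Top2a at -2.26 (SE 0.28) and Kif23 at -2.87 (SE 0.39), while Nusap1 did not pass at its depth.

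Across all 9 groups, mean Cyrano levels ran from 1962 CPM in CyrMut to 1647 CPM in WT cerebellum of experiment 2, through WT of 1B (1847), Mir7DKO of 1B (1808), Mir7DKO cerebellum of 2 (1754) and WT of 1A (1697). Each of these cerebellar groups overlapped its neighbour in that order. Mir7DKO cortex (1001.5), WT cortex (874) and CyrKO (80.4) followed, and each was apart from the group before it. For Nusap1, CyrKO was apart from the rest, and the other 8 groups, at means of 0.865 to 1.55 CPM, each overlapped their neighbour. The experiments were not fitted together, so this order describes the libraries and was not tested.

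Each gene was also set beside Cyrano and Nusap1 over all 33 libraries, as log2(CPM + 1) minus the WT mean of its experiment and tissue, among 11675 genes with a mean count of at least 50. Cyrano and Nusap1 had a Pearson r of -0.976 over the 33 libraries. Over the 29 libraries other than CyrKO, a choice made after seeing the data, r was 0.014, so the relation rests on the 4 CyrKO libraries. The genes most like Cyrano over 33 libraries were Cox6a1 (r = 0.748), Oaz2 (0.727) and Ldhb (0.707), and the least like were Krt222 (-0.763), Ube2n (-0.713) and Syt1 (-0.705). The most like Nusap1 were Krt222 (0.747), Ankrd44 (0.7) and Ube2n (0.696), and the least like, after Cyrano, were Cox6a1 (-0.747) and Oaz2 (-0.712). All values share library depth and the same WT baselines.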

How the data were processed

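Per the submitters' processing notes, STAR 2.4, HTSeq 0.6.1p1 and DESeq2 1.10 were used on mm10 and GRCm38. Each table the authors deposited holds whole-number read counts (per the file headers). The authors also deposited a normalised signal, made by dividing counts by 1 size factor a library, and DESeq2 columns with a log2 fold change, a Wald score and p-values. Only the deposited counts were used here. Annotation release and strand setting are not stated in the sources used. The CyrMut file had 1 record lacking a cell, which was left empty, and the later cells were moved back under their headers.

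Libraries were grouped by genotype, tissue and experiment, per the labels, and compared within an experiment. Counts of all genes were tested in R 4.3.3 by the quasi-likelihood F-test of edgeR 4.0.16, two-sided, after filterByExpr (minimum count 10) and TMM scaling, with Benjamini-Hochberg adjustment over all genes tested at a threshold of 0.05. The steps were tested on simulated data. The SE is the size of the log2 change divided by the root of F, and 95% bounds are taken from it. DESeq2 1.42.0, RLE scaling, no filter on low counts, a replicate block, 1 fit over experiment 1B and leaving out each library were the alternatives. Of 45 pairs of libraries within a group none agreed within sampling noise. Lengths are the union of annotated exons. The 3′ UTR matches and sequences come from the GENCODE annotation of GRCm38 and from RefSeq, where all 10 members matched a promoter. The genes named are the 10 members, Oip5, Cdr1as, genes near Cyrano, list members, and the 3 genes at each end of the likeness order. Dll4 and Mga were named after their values were seen. The members and lists were chosen with earlier results of these data known.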

Additional observations from a re-analysis of the deposited data

Results flagged for a closer look

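In 60 groups of 4 libraries, 3 held a library far from the others by Dixon's ratio at the 95% level, where chance gives about 1 in 20. Nusap1 in WT cerebellum of experiment 2 was at 2.13 CPM (26 reads) in replicate 4, and at 0.663 to 0.718 CPM in the other replicates. Itpka in Mir7DKO cerebellum of experiment 1B was at 26.0 CPM in replicate 1 and at 33.3 to 33.8 CPM in the others. Without that library the log2 change of Itpka was 0.05, and with it -0.03. Ltk in Mir7DKO cerebellum of experiment 1B was at 7.50 CPM in replicate 4 and at 6.13 to 6.35 CPM in the others.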

How the results depend on the processing

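Of the counts of members past the threshold, all but 1 were within 1.5 times their main value under every alternative run, 87 values in all. The exception was Mir7DKO cortex with no filter on low counts, where 1 member, Cyrano, passed. No called member changed direction. Among member changes that did not pass, 40 values changed sign, in 21 pairs of member and comparison. The largest of these was 0.103 in size in the main fit, and the largest under an alternative was 0.274. In CyrKO, the log2 change ran from -4.59 to -4.49 for Cyrano, 3.84 to 4.02 for Nusap1 and 0.54 to 0.76 for Exd1 over the alternatives run. Counts of genes called among all genes were higher with no filter on low counts: 43 against 1 with the filter in CyrMut, 10 against 3 in CyrKO, 4 against 1 in the 1B Mir7DKO libraries, 184 against 28 in Mir7DKO cerebellum and 48 against 6 in Mir7DKO cortex of experiment 2, and 74 against 23 for the difference between tissues. DESeq2 called 4 in CyrMut and 3 in Mir7DKO of experiment 1B. Leaving out 1 library in turn, edgeR called 1 to 17 genes in CyrMut (17 without CyrMut replicate 2), 3 to 10 in CyrKO (10 without WT replicate 4), 0 to 2 in Mir7DKO of experiment 1B and 4 to 11 in cortex (11 without WT replicate 1). In Mir7DKO cerebellum of experiment 2 it called 3 to 70, with 3 without WT replicate 1 or 2, 6 when WT replicate 4 was left out, and 67 and 70 when Mir7DKO replicates 2 and 3 were. The difference between tissues gave 1 to 48, with 1 without WT cortex replicate 4 or Mir7DKO cortex replicate 2 and 48 without Mir7DKO cerebellum replicate 3. The shares over all genes given beside the members move with these counts.

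Replicate numbers are not stated to pair animals, and in no comparison did all same-numbered libraries correlate above 0.1 in their deviations from the group means. Over the comparisons, r ran from -0.318 (CyrKO and WT) to 0.426 (Mir7DKO and WT of experiment 1B). In the fit with a replicate block, 0 members passed in CyrMut and in each Mir7DKO comparison, and 7 between tissues. Over all genes the block moved the calls to 2 in Mir7DKO of experiment 1B, 20 in cortex and 1 for the difference between tissues. As a hint from the data, every Mir7DKO cortex library correlated best with the WT cortex library of its own number (3 of 3, r from 0.077 to 0.119). So did every Mir7DKO cerebellum library of experiment 2 with the Mir7DKO cortex library of its own number (3 of 3, r from 0.081 to 0.126). Against WT cerebellum, fewer did so: 2 of 3 for CyrMut, 0 of 4 for CyrKO, and for Mir7DKO 2 of 4 in experiment 1B and 1 of 3 in experiment 2. For WT cerebellum against WT cortex it was 0 of 4 (r from -0.049 to 0.003), so the hint does not hold in all groups.

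Depth limits Nusap1 outside CyrKO, at 7 to 26 reads a library, and Oip5, at 1 to 12. p-values set each change against the spread between these libraries, estimated in part from all genes tested.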
